A study of Homo sapiens with 12 samples.

Results

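The cytosolic ribosomal protein genes encode the protein components of the large (60S) and small (40S) subunits of the ribosome. They were taken by symbol: RPL or RPS followed by a number and, where present, the letter A, X or L, together with RPLP0, RPLP1, RPLP2, RPSA and RPL36AL. A mean of at least 5 CPM (counts scaled to library size) over all libraries was also required. The pattern took 85 symbols, of which 82 passed, out of 23615 genes in the table: 51 genes of the 60S and 31 of the 40S subunit. RPL3L (mean 0.12 CPM), RPL10L and RPS17L (both listed at 0) lay outside the minimum, and RPL39L (13.2 CPM) and RPS27L (34.5 CPM) were the members nearest to it on the inside. Neither the pattern nor the minimum used a difference between groups.

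RNA was sequenced from HEK293T cells, an established human embryonic kidney line, carrying a control hairpin (shControl) or a hairpin against HuR (shHuR), the RNA-binding protein encoded by ELAVL1. Each line was a puromycin-selected population made with a pLKO lentivirus, and each rests on 1 hairpin. Cells were untreated, given 25 µM HNE(alkyne), a tagged form of the lipid-derived electrophile hydroxynonenal, or given the oxidant H2O2 at 225 µM, both for 18 h before RNA was taken. The series asks what HuR contributes to the transcriptome of cells exposed to electrophiles and oxidants, and each of the 6 combinations of line and treatment had 2 biological replicates, 12 libraries in all.

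A ribosome holds 1 copy of nearly every ribosomal protein, so cells make these proteins in matched amounts. Their mRNAs are short and among the most abundant of a growing cell, and most belong to the TOP class, which opens at the cap with a C followed by a run of pyrimidines (a terminal oligopyrimidine tract). Translation of TOP mRNAs depends on mTOR signalling and on the cap-binding protein LARP1, and MYC promotes transcription of many of these genes. HuR is known for binding U-rich and AU-rich stretches in other mRNAs and for changing their stability and translation.

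The TOP tract is the sequence feature these mRNAs share. A run was counted where the base at the annotated start was C and at least 4 further C or T bases followed directly, 5 or more bases in all, on the transcribed strand of RefSeq starts (GRCh38.p14). For a gene with several listed starts, the start with the longest run was taken. Of the 82 genes 67 matched a start, and 47 of those (70.1%) opened with a run, against 4.07% of all 35116 starts and 5.14% of all 27305 genes in that table. The median run of these 47 was 8 bases, and the longest was 19 bases, in RPL39. The starts below are those of the 8 genes with the largest called falls and the 3 called rises between the lines, given later. Each shows 10 bases before the start and the first 20 bases of the transcript, 5′ to 3′, with the pyrimidine run from the start in capitals.
RPL22L1: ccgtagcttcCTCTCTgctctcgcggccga
RPL26: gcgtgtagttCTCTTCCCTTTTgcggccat
RPL12: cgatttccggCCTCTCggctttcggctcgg
RPL3: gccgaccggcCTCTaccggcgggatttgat
RPS3A: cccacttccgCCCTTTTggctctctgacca
RPS18: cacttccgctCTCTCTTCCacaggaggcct
RPL13A: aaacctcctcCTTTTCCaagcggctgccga
RPL41: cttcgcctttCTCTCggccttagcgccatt
RPL26L1: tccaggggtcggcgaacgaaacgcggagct
RPS27L: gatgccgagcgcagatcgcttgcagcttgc
RPL7L1: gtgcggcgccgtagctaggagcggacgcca
Of these 8 largest called falls, 7 opened with a run of 5 to 12 bases, and RPL3 had 4 pyrimidines and so fell just short of the count. Over all called falls, 20 genes had a run, 6 had none by this count and 6 had no start listed. None of the 3 genes called higher in shHuR cells started with C, so no base is in capitals.

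These windows lie at chr3:170870176-170870205 (minus strand) for RPL22L1, chr17:8383174-8383203 (minus) for RPL26, chr9:127451387-127451416 (minus) for RPL12 and chr22:39319604-39319633 (minus) for RPL3. RPS3A is at chr4:151099618-151099647 (plus), RPS18 at chr6:33272065-33272094 (plus), RPL13A at chr19:49487598-49487627 (plus) and RPL41 at chr12:56116623-56116652 (plus). RPL26L1 is at chr5:172958719-172958748 (plus, 1 of 2 listed starts), RPS27L at chr15:63157458-63157487 (minus) and RPL7L1 at chr6:42879606-42879635 (plus). All cover the promoter's last bases and the start of the first exon. The files were made on GRCh37, so these positions are those of the reference and not of the files.

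In GENCODE release 29 the 82 genes were spread over 21 chromosomes, with 12 on chromosome 19. Their spans ran from 1358 bp (RPL41) to 80992 bp, with a median of 5650.5 bp. Of the 82, 28 held 60 genes of small nucleolar RNAs, which guide the modification of ribosomal RNA. Many have processed pseudogenes, 66 named for RPL21, 50 for RPL12 and 38 for RPS3A, and reads can be shared between a gene and such a copy. The counts of RPL13A, RPL17, RPL21, RPL32, RPL36A and RPS10 were not all whole numbers, so the levels of these 6 are less certain.

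Total counts were 24855946 to 29907258 per library, and the 82 genes took 6.21% to 8.02% of them. ELAVL1 was 86.0 to 99.4 CPM in the 6 shControl libraries (median 92.5) and 69.3 to 74.5 CPM in the 6 shHuR libraries (median 70.5), with no overlap and a log2 fold change of −0.38 ± 0.0405 (SE; edgeR quasi-likelihood test, adjusted p = 2.60e-06). Of the markers of HEK293T cells, VIM (346 to 527 CPM), CDH2, NEFL and KRT18 (from 30.4 CPM) were present in every library, NEFM was at 3.41 to 12.1 CPM, and PAX2 and LHX1 were near absent (at most 1.26 CPM). Of 9 markers of blood, liver, fibroblast and endothelial cells, 7 reached at most 0.375 CPM, CD68 2.27 CPM and COL1A1 4.69 CPM. The second HNE-treated shControl library had the highest summed ribosomal protein level, and values without it are given for some of the results it moved.

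Levels between genes were compared as FPKM, which is scaled to length. RPL39 was highest, at a mean of 5731 FPKM over the 12 libraries, ahead of RPL41 (4733 FPKM), RPS18 (4458 FPKM), RPS6 (3985 FPKM) and RPS2 (3888 FPKM). These means do not form a firm order, since the libraries ranged from 4841 to 6595 FPKM for RPL39 and from 3691 to 7069 FPKM for RPL41. The lowest were RPL22L1 (22.5 FPKM), RPL39L (26.0 FPKM), RPS27L (38.4 FPKM), RPL28 (84.7 FPKM) and RPL26L1 (113 FPKM). The median gene had 1378 FPKM, against 7.35 FPKM for all genes tested, and 33 of the 82 lay above the 99th percentile of genes tested.

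Of these 5 lowest genes 4 are paralogs, second genes that encode a variant of a ribosomal protein, and each was far below its counterpart. RPL39L had 26.0 FPKM against 5731 for RPL39, RPL22L1 22.5 FPKM against 317 for RPL22, RPS27L 38.4 FPKM against 3046 for RPS27, and RPL26L1 113 FPKM against 2937 for RPL26. RPL7L1 stood at 140 FPKM against 2775 for RPL7. RPL36AL was closer to its counterpart, at 352 FPKM against 1120 for RPL36A.

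Over all treatments, ribosomal protein mRNAs were slightly lower in shHuR than in shControl cells. With all 6 libraries of each line and treatment as a covariate, 32 of the 82 genes fell and 3 rose (edgeR quasi-likelihood test, Benjamini-Hochberg adjusted p under 0.05 over 16005 genes). That is 42.7% of these genes called, 39.0% lower and 3.66% higher, against 29.9% of all genes tested called, 15.9% lower and 14.1% higher. The median log2 fold change of the 82 was −0.12, against −0.002 for all genes, and 66 of 82 values were negative against 50.4% of all genes. The falls were small, from −0.11 to −0.45 with a median of −0.20, and 47 genes were not called (−0.19 to 0.14). The 60S list (22 of 51 lower, 2 higher, median −0.13) and the 40S list (10 of 31 lower, 1 higher, median −0.11) moved the same way, and the difference between them was not tested. The count of 35 was 23 (21 lower, 2 higher) without the first H2O2-treated shHuR library, with 23.7% of all genes called. It was 12 to 18 with limma on log2 FPKM, with 19.5% to 33.1% of all genes called. With the share of small RNA genes as a covariate, as given below, it was 19, with a median of −0.05 and 26.5% of all genes called. In the limma and covariate fits these genes were called less often than all genes. Without the second HNE-treated shControl library the median was −0.09. In bulk RNA, fewer cells with a high level and less of these mRNAs in each cell cannot be told apart.

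**Figure D1:**
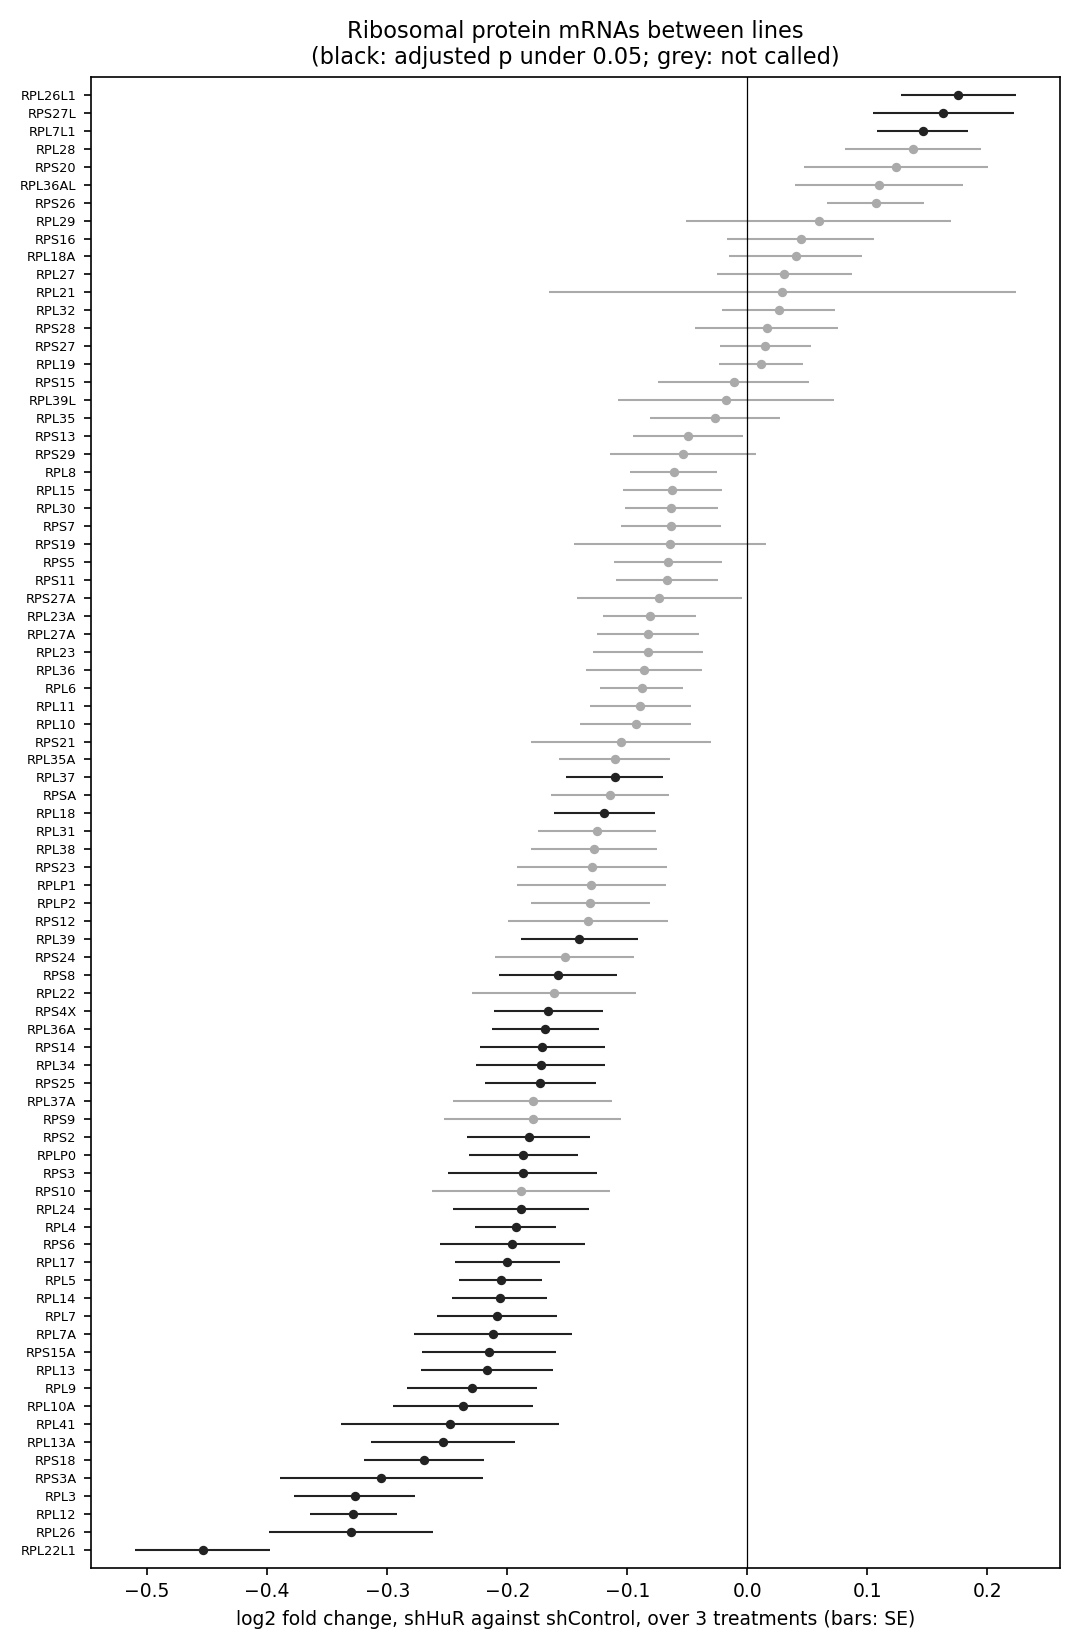
Log2 fold change of the 82 ribosomal protein mRNAs, shHuR against shControl over all treatments (horizontal axis; bars are SE, n = 6 libraries a line), sorted by value; black points passed an adjusted p of 0.05. The 32 called falls reach −0.45 (RPL22L1) and the 3 called rises, RPL26L1, RPS27L and RPL7L1, reach 0.18.

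RPL12, a protein of the ribosomal stalk base, was 676 to 715 CPM in the shControl libraries (median 704) and 517 to 577 CPM in the shHuR libraries (median 562). The lines did not overlap. The mean fell by 20.4%, with a log2 fold change of −0.33 ± 0.0363 (SE, adjusted p = 4.17e-06).

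RPL22L1, the low-level paralog of RPL22, had the largest log2 fold change. It was 42.7 to 51.1 CPM (median 46.4) in shControl and 32.0 to 37.0 CPM (median 33.5) in shHuR libraries. The lines again did not overlap. Its log2 fold change was −0.45 ± 0.0563 (SE, adjusted p = 1.42e-05), while RPL22 itself was not called (−0.16 ± 0.0680, adjusted p = 0.0830).

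RPL3, a core protein near the peptidyl transferase centre, was 1399 to 1794 CPM (median 1558) in shControl and 1161 to 1386 CPM (median 1234) in shHuR libraries. The lowest shControl library lay just above the highest shHuR library. Its log2 fold change was −0.33 ± 0.0505 (SE, adjusted p = 0.000116). RPL5, which joins RPL11 and the 5S ribosomal RNA in a particle that can bind MDM2, was 1888 to 2037 CPM (median 1938) in shControl and 1603 to 1765 CPM (median 1719) in shHuR libraries. Its lines did not overlap, and its log2 fold change was −0.21 ± 0.0348 (SE, adjusted p = 0.000271). Its partner RPL11 was not called (−0.09 ± 0.0420, adjusted p = 0.119).

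In all, every shHuR library lay below every shControl library for 10 of the 82 genes (12.2% of them, against 6.84% of all genes tested): RPL3, RPL4, RPL5, RPL12, RPL13, RPL14, RPL17, RPL22L1, RPLP0 and RPS4X. The reverse held for RPL7L1 alone, against 5.25% of all genes. The other 22 called falls had overlapping lines. RPL26, an RNA-binding protein of the 60S subunit, is one of them, at 1046 to 1589 CPM (median 1236) against 850 to 1080 CPM (median 1056). Its log2 fold change was −0.33 ± 0.0682 (SE, adjusted p = 0.00147), and 4 shHuR libraries lay above the lowest shControl library but below the other 5.

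For other large falls, 1 library set the top of the shControl range. RPS3A of the small subunit was 1973 to 3297 CPM (median 2348) in shControl and 1733 to 2196 CPM (median 1981) in shHuR libraries, and the highest value came from the second HNE replicate. Its log2 fold change was −0.30 ± 0.0847 (SE, adjusted p = 0.0114), and −0.20 without that library. RPL41, the shortest ribosomal protein, was 1209 to 1936 CPM (median 1311) in shControl and 1008 to 1390 CPM (median 1176) in shHuR libraries, with its highest value in the same library. Its log2 fold change of −0.25 ± 0.0909 (SE, adjusted p = 0.0485) was −0.13 without it, with an adjusted p of 0.0820. With 1 library left out in turn, the call for RPL41 held only without the first HNE, first untreated or second H2O2 shControl library or the first untreated or second H2O2 shHuR library, and it was lost in DESeq2 (adjusted p = 0.152).

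RPS18 of the small subunit was 1499 to 1840 CPM (median 1702) against 1207 to 1535 CPM (median 1436), and its log2 fold change was −0.27 ± 0.0501 (SE, adjusted p = 0.000612). RPL13A, known also as part of an interferon-dependent translation inhibitor, was 593 to 762 CPM (median 652) against 469 to 638 CPM (median 551), with −0.25 ± 0.0603 (SE, adjusted p = 0.00422). Both genes overlapped between the lines only through the higher of the untreated shHuR libraries and the lowest shControl libraries. RPS6, the substrate of the S6 kinases, was 2377 to 3182 CPM (median 2710) against 2104 to 2675 CPM (median 2366), and its fall of −0.20 ± 0.0604 (SE, adjusted p = 0.0211) lost its call without the first H2O2 shControl library, the first H2O2 shHuR library, the second HNE shHuR library or the second untreated shHuR library (adjusted p 0.0560 to 0.0613). Of the acidic stalk proteins, RPLP0 fell (−0.19 ± 0.0457, adjusted p = 0.00518), and RPLP1 (−0.13, adjusted p = 0.125) and RPLP2 (−0.13, adjusted p = 0.0560) were not called. RPSA, which also serves as a laminin receptor, was not called (−0.11, adjusted p = 0.0884). Without the second HNE-treated shControl library the values were −0.05 for RPLP1, −0.08 for RPLP2 and −0.07 for RPSA. They were −0.27 for RPL3 and RPL26, −0.20 for RPL13A, and −0.14 for RPS6 and RPLP0.

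All 3 genes that rose are paralogs with low levels. RPL7L1 was 140 to 153 CPM (median 145) in shControl and 155 to 172 CPM (median 159) in shHuR libraries, without overlap, and its log2 fold change was 0.15 ± 0.0376 (SE, adjusted p = 0.00721). RPL26L1 was 48.7 to 60.7 CPM (median 55.0) against 57.6 to 64.8 CPM (median 62.0), overlapping through the H2O2-treated shControl libraries, with 0.18 ± 0.0477 (SE, adjusted p = 0.00989). RPS27L, known as a p53 target, was 28.7 to 36.2 CPM (median 32.8) against 32.5 to 41.8 CPM (median 35.5). Its rise of 0.16 ± 0.0587 (SE, adjusted p = 0.0442) held only without the first H2O2 or first untreated shControl library or the second H2O2 or second untreated shHuR library (adjusted p 0.0598 to 0.112 without any of the other 8).

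The counterparts of these paralogs went the other way or stayed near 0. RPL7 fell (−0.21 ± 0.05, adjusted p = 0.00443) and RPL26 fell as given above, while RPS27 was not called (0.01 ± 0.0379, adjusted p = 0.807). RPL22L1 was the 1 paralog that fell. RPL36AL (0.11, adjusted p = 0.255) and RPL39L (−0.02, adjusted p = 0.908) were not called, and their counterparts RPL36A (−0.17 ± 0.0446, adjusted p = 0.00864) and RPL39 (−0.14 ± 0.0489, adjusted p = 0.0387) fell. Without the second HNE-treated shControl library RPL36AL passed as higher (0.19, adjusted p = 0.0125). The RPL39 call was lost without any of 7 libraries (adjusted p 0.0515 to 0.120), and held without the second HNE, second H2O2 or first untreated shControl library or the second H2O2 or first untreated shHuR library. RPL10, whose paralog RPL10L was listed at 0, was not called (−0.09, adjusted p = 0.142). The paralogs' differences from their counterparts were not tested.

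**Figure D2:**
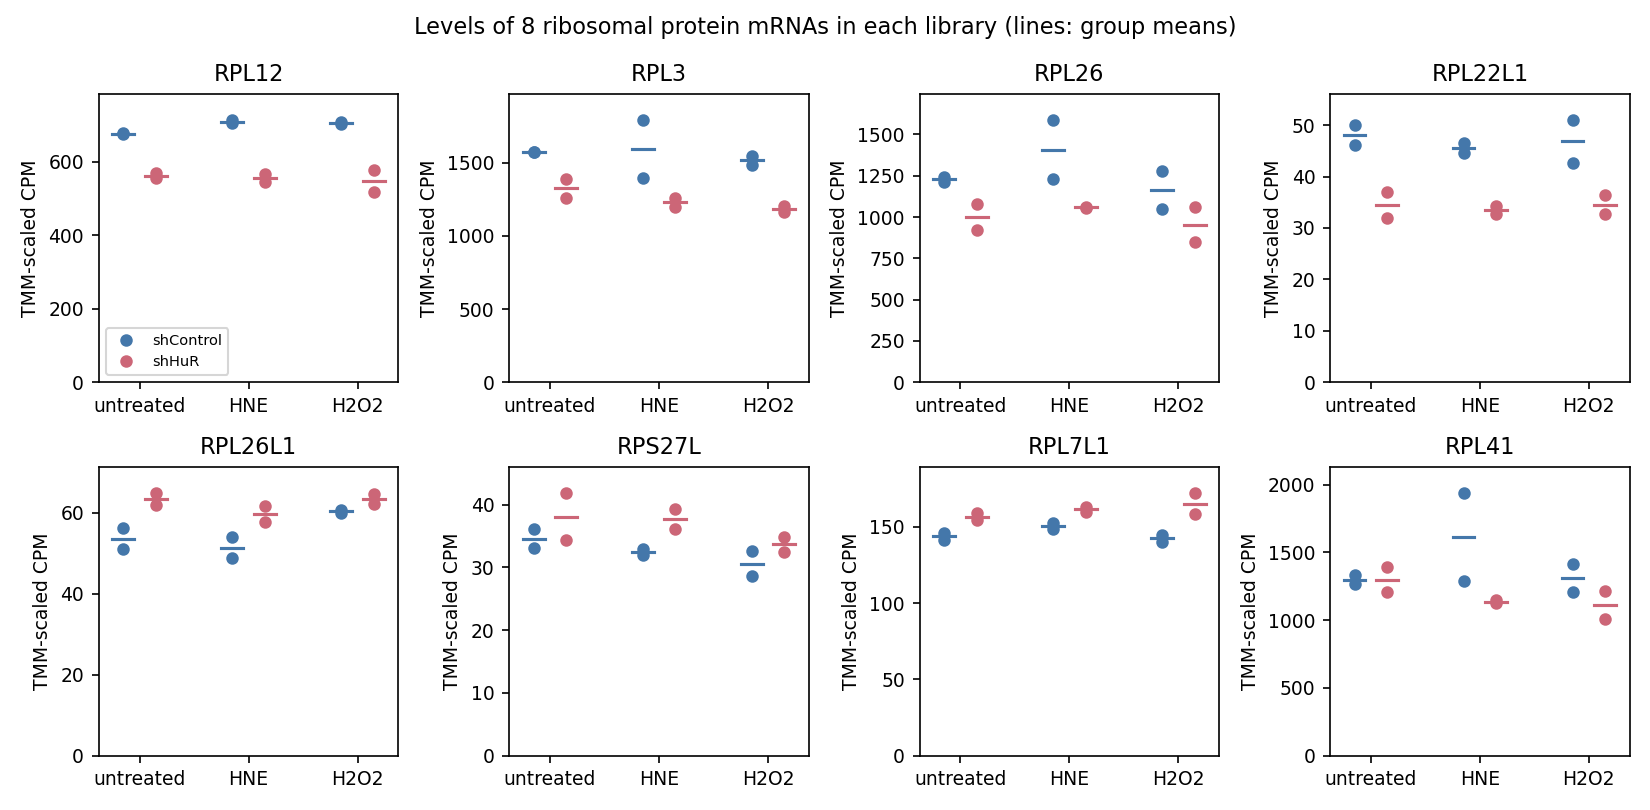
TMM-scaled CPM of 8 ribosomal protein mRNAs in each library (vertical axis from 0), by treatment, with shControl in blue and shHuR in red; horizontal lines are means of 2 replicates. RPL12 and RPL22L1 keep the lines apart in all 3 treatments, RPL7L1 is higher in shHuR, and 1 HNE-treated shControl library is high for RPL41 and RPL26.

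Summed over the 82 genes, the level was 68359 to 83153 CPM in shControl libraries (mean 73670 ± 5089 SD, n = 6) and 60667 to 71723 CPM in shHuR libraries (66259 ± 3582 SD, n = 6). The ranges overlapped, and the shHuR mean differed by −10.1%. The highest value was that of the second HNE-treated shControl library, and without it the difference was −7.68%. The difference was −10.1% for the summed 60S genes (−8.54% without that library) and −9.99% for the 40S genes (−6.48% without it).

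Ribosomal protein mRNAs also shifted together between replicates of 1 group. The median log2 difference of the first from the second replicate over the 82 genes was −0.20 in HNE-treated shControl cells, 0.15 in untreated shHuR, −0.15 in H2O2-treated shHuR and 0.12 in H2O2-treated shControl cells. It was −0.04 and −0.01 in the remaining groups. In 3 of the 6 groups this shift was larger in size than the median difference between the lines.

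The level moved with the share of counts in small RNA genes (small nucleolar, Cajal body, spliceosomal, Y, 7S, vault and micro RNA genes). That share was 0.754% to 1.32% in shControl libraries (0.990% ± 0.223 SD, n = 6) and 0.664% to 0.956% in shHuR libraries (0.798% ± 0.1 SD, n = 6). Over all 12 libraries the summed ribosomal protein level and this share had r = 0.898 (permutation p = 0.0001, adjusted 0.0003) and rho = 0.867 (permutation p = 0.00062, adjusted 0.00186). Without the 2 libraries farthest from the median share, r was 0.864. Within the shControl libraries r was 0.865 (n = 6, exact permutation p = 0.0194, adjusted 0.0194) and rho 0.886 (exact permutation p = 0.0333, adjusted 0.05), with r = 0.837 without the 2 farthest. Within the shHuR libraries r was 0.946 (n = 6, exact permutation p = 0.0167, adjusted 0.0194) but rho 0.771 (exact permutation p = 0.103, adjusted 0.103), and r fell to 0.588 without the 2 farthest, so there the relation rests on those libraries. All tests were two-sided and adjusted over these 3 sets of libraries.

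**Figure D3:**
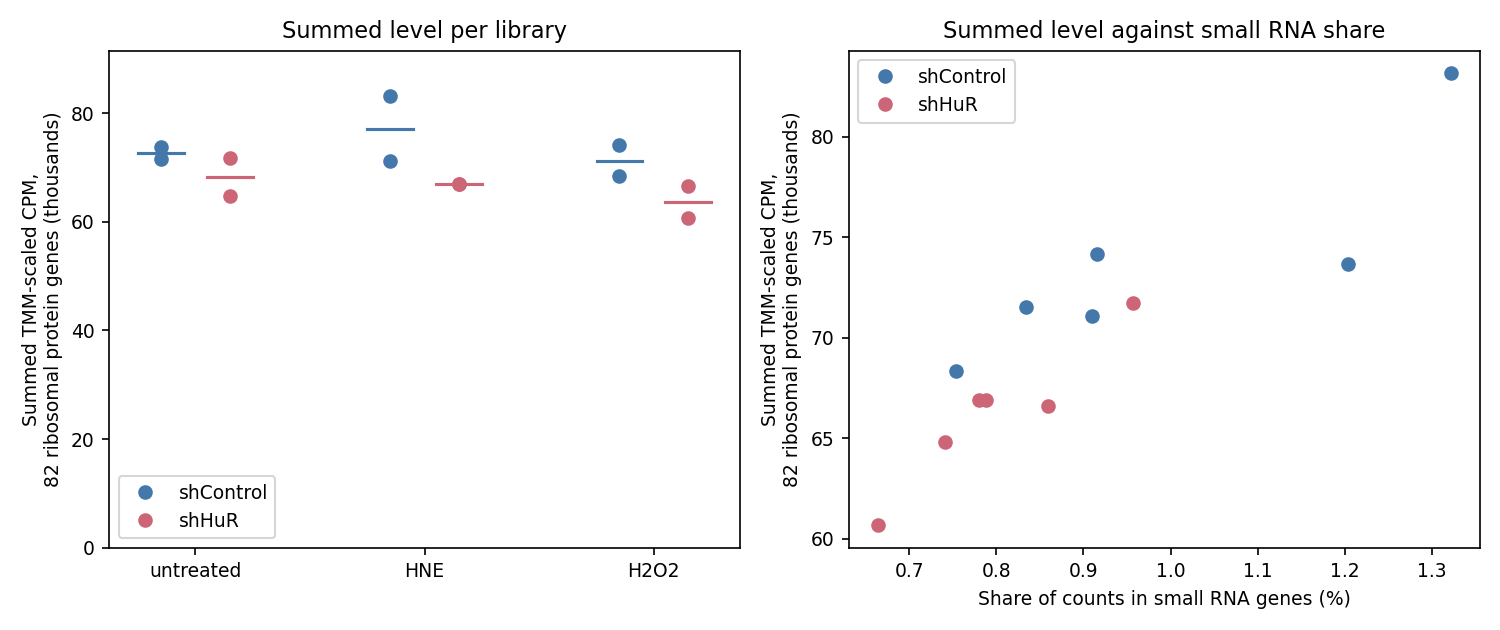
Left, summed TMM-scaled CPM of the 82 ribosomal protein genes in each library (axis from 0, in units of 1000 CPM; lines are means of 2 replicates), and right, the same sum against the percent of counts in small RNA genes, with axes that do not start at 0. The sum rose with the share, from 60667 CPM at 0.664% to 83153 CPM at 1.32%. Some shHuR libraries lay below shControl libraries of similar share (66595 CPM at 0.859% against 71545 CPM at 0.834%). Another shHuR library reached 71723 CPM at 0.956%, above a shControl library with 71102 CPM at 0.910%.

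With the small RNA share as a covariate in the line comparison, an alternative chosen after seeing the data, 14 of the 82 genes were lower and 5 higher, with a median of −0.05. That is 19 called against 35 without it, while the share of all genes called was 26.5% against 29.9%. RPL12 (−0.32, adjusted p = 6.43e-06), RPL22L1 (−0.40, adjusted p = 7.05e-05), RPL3 (−0.24, adjusted p = 0.000393) and RPL5 (−0.17, adjusted p = 0.00129) stayed called. RPS3A (−0.12, adjusted p = 0.144), RPL41 (−0.05, adjusted p = 0.608) and RPS6 (−0.07, adjusted p = 0.265) were no longer called. Nor were RPS27L (0.16, adjusted p = 0.103), RPL39 (−0.08, adjusted p = 0.217), RPL36A (−0.11, adjusted p = 0.0698), and, outside these genes, EEF1A1 (−0.06, adjusted p = 0.207) and MTOR (0.07, adjusted p = 0.262). RPL36AL then passed as higher (0.26, adjusted p = 0.00139). Since the share can include small nucleolar RNA made from these genes, the covariate may also remove part of their own difference. It therefore does not measure the part of library composition in the line difference, which was not tested.

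Split by their start, 20 of the 47 genes with a pyrimidine run fell (42.6%) and none rose, with a median log2 fold change of −0.14. Of the 20 genes whose start had no such run, 6 fell and 3 rose, with a median of −0.03. RPL3 is among these 6, with its run of 4, and the 3 that rose are the low-level paralogs given above. Of the 15 genes with no start in the table, 6 fell (median −0.08). Other genes tested that open with a run numbered 806, and 23.6% of them were lower and 10.9% higher (median −0.04). Among 11260 other genes without a run, 15.2% were lower and 15.8% higher (median 0.01). The medians of the 47 genes were −0.08 untreated, −0.23 with HNE and −0.14 with H2O2. The HNE median of all 82 genes went from −0.18 to −0.07 without the second HNE-treated shControl library. That of the 47 was not taken without it. The differences between these sets of genes were not tested.

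**Figure D4:**
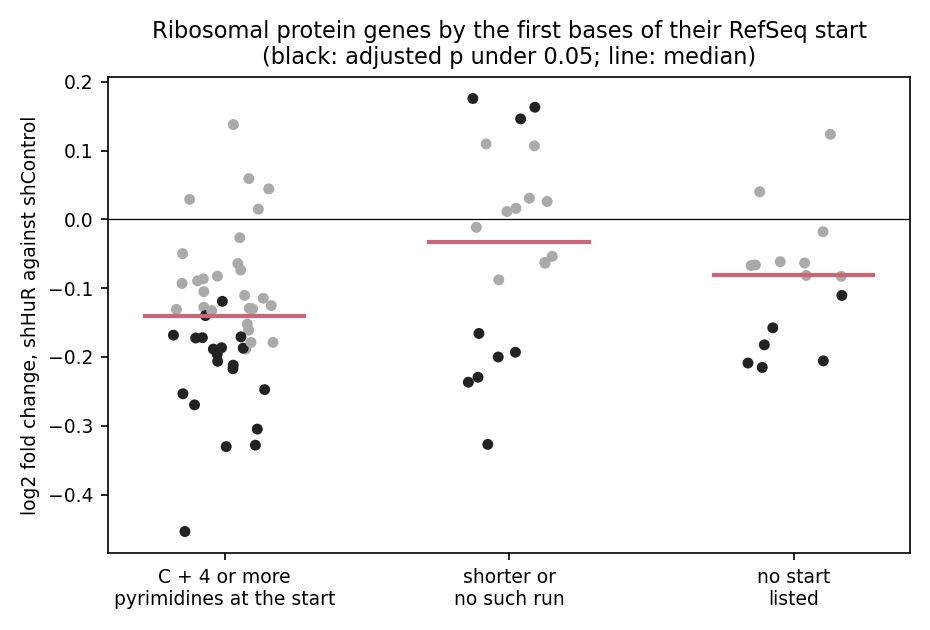
Log2 fold change of each ribosomal protein mRNA, shHuR against shControl over all treatments (vertical axis), by whether its RefSeq start opens with C and at least 4 more pyrimidines (47 genes), does not (20) or is not listed (15); black points passed an adjusted p of 0.05 and red lines are medians. The medians are −0.14, −0.03 and −0.08, and all 3 called rises lie in the middle group.

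Of the 28 genes that hold a small nucleolar RNA gene, 14 fell and none rose (median −0.13), and of 54 other genes 18 fell and 3 rose (median −0.11), against 15.9% of all genes tested lower and 14.1% higher. The difference between the 2 sets was not tested.

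Within single treatments, fewer ribosomal protein mRNAs passed, as each comparison rests on 2 against 2 libraries. The sign was negative in all 3 treatments for 54 of the 82 genes (65.9%), against 29.3% of all genes tested, and positive in all 3 for 6. These 3 differences use separate libraries.

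In untreated cells 3 of 82 genes fell and none rose (background 7.98% of genes called, 4.48% lower and 3.5% higher), with a median of −0.05 and 59 negative values. This median was 0.005 without the second untreated shHuR library and −0.12 without the first, so its sign rests on 1 library. RPL22L1 was 46.2 and 49.9 CPM in shControl and 37.0 and 32.0 CPM in shHuR libraries (−0.48 ± 0.103 SE, adjusted p = 0.0126). RPL12 was 676 and 678 against 557 and 569 CPM (−0.27 ± 0.0630 SE, adjusted p = 0.0213). RPL5 was 1923 and 2037 against 1742 and 1603 CPM (−0.24 ± 0.0630 SE, adjusted p = 0.0312). In each case both shHuR libraries lay below both shControl libraries. No gene was called without the first or second untreated shControl library or the second untreated shHuR library, with 1.48% to 1.63% of all genes called in these fits, and 6 were called without either HNE-treated shControl library, with 12.5% of all genes called.

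With HNE 11 of 82 genes fell and none rose (background 8.27%, 5.04% lower and 3.24% higher), with a median of −0.18 and 67 negative values. This median was −0.07 without the second HNE-treated shControl library and −0.24 without the first. The 60S genes were 10 of them: RPL41, RPL22L1, RPL3, RPL10A, RPL12, RPL13, RPLP1, RPLP2, RPLP0 and RPL4. RPS4X was the 40S gene. RPL41 had 1291 and 1936 CPM in shControl and 1127 and 1147 CPM in shHuR libraries (−0.51 ± 0.146 SE, adjusted p = 0.0475). RPL3 had 1399 and 1794 against 1261 and 1197 CPM (−0.38 ± 0.0916 SE, adjusted p = 0.0231). The shControl replicates of both genes differed by more than the lower of them differed from shHuR, and without the second shControl library the values were −0.18 (RPL41) and −0.19 (RPL3). RPL22L1 had 46.5 and 44.5 against 32.8 and 34.3 CPM (−0.44 ± 0.104 SE, adjusted p = 0.0196), with replicates close together in both lines.

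The HNE count rested on single libraries. Without the second HNE-treated shControl library 3 genes passed (1 higher, 2 lower), while 8.08% of all genes were called. Without the first 38 passed (4 higher, 34 lower), with 11.5% of all genes called. Without the first or second HNE-treated shHuR library none did, and the share of all genes called dropped as well, to 1.63% and 0.999%. Without either untreated shControl library or either H2O2-treated shHuR library it was 5, with 6.07% to 6.23% of all genes called.

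With H2O2 4 of 82 genes fell and none rose (background 7.19%, 4.67% lower and 2.52% higher), with a median of −0.12 and 74 negative values. RPL22L1 had 51.1 and 42.7 CPM in shControl and 32.7 and 36.3 CPM in shHuR libraries (−0.44 ± 0.103 SE, adjusted p = 0.0195). RPL12 had 704 and 709 against 517 and 577 CPM (−0.37 ± 0.0630 SE, adjusted p = 0.00333). RPL3 had 1547 and 1486 against 1161 and 1207 CPM (−0.36 ± 0.0916 SE, adjusted p = 0.0316). Both shHuR libraries lay below both shControl libraries for each, and RPL18 was the remaining call (−0.25, adjusted p = 0.0291). The count was 13 without either HNE-treated shControl library (11.3% and 11.2% of all genes called) and 2 without either untreated shControl library (5.12% and 5.11%). It was 1 without the first H2O2-treated shControl library (2.6%) or the second H2O2-treated shHuR library (1.91%), and 0 without the first H2O2-treated shHuR library (1.76%).

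HNE itself changed no ribosomal protein mRNA past the threshold over both lines. None of 82 was called (background 0.247%), none had an unadjusted p under 0.05 in edgeR against 12.3% of all genes, and DESeq2 called none. The median log2 fold change was 0.01, and the median SE over the 82 genes was 0.0650. The smallest p belonged to RPL26 (0.14 ± 0.0744 SE, adjusted p = 0.473) and RPS24, a 40S protein mutated in some cases of Diamond-Blackfan anaemia (0.13 ± 0.0684 SE, adjusted p = 0.473). Without the second HNE-treated shControl library these values were 0.046 (RPL26) and 0.052 (RPS24).

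H2O2 against untreated cells, a comparison that shares the untreated libraries with the previous one, called none of 82 genes in edgeR (background 0%). Of the 82, 9 had an unadjusted p under 0.05, against 5.44% of all genes, and DESeq2 called 1 (0.019% of all genes). Negative values numbered 71 of 82, with a median of −0.07. RPL21 was 190, 189, 178 and 173 CPM in the untreated libraries and 144, 141, 139 and 103 CPM in the H2O2-treated libraries. All 4 treated libraries lay below all 4 untreated ones, with a log2 fold change of −0.47 ± 0.0704 (SE, adjusted p = 0.131). DESeq2 called it (adjusted p = 5.88e-07), and edgeR did so without either H2O2-treated shHuR library (adjusted p 0.0199 and 0.0365). RPL21 is among the genes with fractional counts and many pseudogenes, and in HNE-treated cells it ranged from 62.8 to 220 CPM. RPL31, a 60S protein at the exit tunnel, had the next smallest p (−0.17 ± 0.0622 SE, adjusted p = 0.900).

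Whether the treatments acted differently in the 2 lines was tested as an interaction. Neither the HNE nor the H2O2 interaction called any of the 82 genes in edgeR (background 0% for both) or in DESeq2. For HNE 6 genes had an unadjusted p under 0.05 (6.73% of all genes did), with a median of −0.10. RPS28 of the small subunit was 179 and 181 CPM untreated and 195 and 214 CPM with HNE in shControl, and 205 and 220 CPM untreated and 172 and 192 CPM with HNE in shHuR cells (−0.41 ± 0.113 SE, adjusted p = 0.712). RPLP2 had −0.31 ± 0.101 (SE, adjusted p = 0.712). For H2O2 3 genes had an unadjusted p under 0.05 (3.62% of all genes did), with a median of −0.07, the smallest p being that of RPL18 (−0.23 ± 0.0896 SE, adjusted p = 1.00) and RPL15 (−0.21 ± 0.0921 SE, adjusted p = 1.00). The HNE interaction median was −0.19 without the first HNE-treated shControl library and −0.01 without the second. The larger HNE median between the lines is therefore not shown to differ from the untreated one.

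Genes that work with the ribosomal proteins were compared from lists, over all treatments, and the counts stand against 14.1% of all genes tested higher and 15.9% lower. GNB2L1 (RACK1), a scaffold on the 40S subunit, was 1788 to 1950 CPM (median 1905) in shControl and 1542 to 1708 CPM (median 1619) in shHuR libraries and fell without overlap (−0.22 ± 0.0353 SE, adjusted p = 0.000144). FAU, which encodes a ubiquitin-like protein fused to a 40S protein, was not called (−0.09, adjusted p = 0.383).

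Other TOP mRNAs, mostly of translation factors and of small nucleolar RNA host genes, had 11 of 21 lower and none higher, with a median of −0.15. The largest falls were those of VIM (−0.37, adjusted p = 2.16e-05), an intermediate filament gene, and GAS5, a host of small nucleolar RNAs, at 175 to 230 CPM in shControl and 134 to 174 CPM in shHuR libraries (−0.37 ± 0.0589 SE, adjusted p = 0.000171). The elongation factors EEF1A1 (−0.15, adjusted p = 0.0188) and EEF2 (−0.18, adjusted p = 0.00179) fell, the first not without the second HNE or second untreated shHuR library (adjusted p 0.0525 and 0.0502), and TPT1 was not called (−0.05, adjusted p = 0.572).

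Mitochondrial ribosomal proteins, which build a separate ribosome, had 23 of 77 higher and 3 lower, with a median of 0.09. MRPL12 (0.35, adjusted p = 0.0192) and MRPS11 (0.34, adjusted p = 0.000144) had the largest rises. Ribosome biogenesis factors, which process ribosomal RNA and assemble the subunits, had 23 of 73 higher and 6 lower, also with a median of 0.09. POLR1A (0.32, adjusted p = 3.90e-05), the largest subunit of RNA polymerase I, and FTSJ3 (0.31, adjusted p = 0.000250), a methyltransferase of ribosome assembly, had the largest rises. Chaperones and importers of single ribosomal proteins were mixed, with 5 of 13 lower and 2 higher (median −0.10). TSR2, the chaperone of RPS26, rose most (0.43, adjusted p = 0.000164), and NAP1L1 fell most (−0.26, adjusted p = 9.43e-05).

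**Figure D5:**
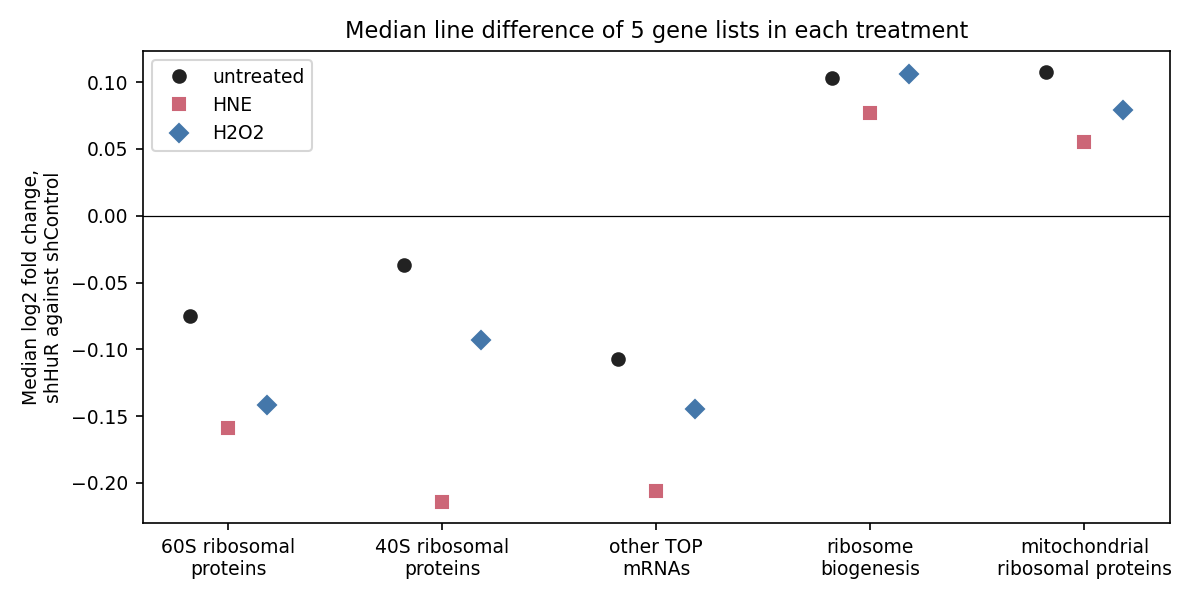
Median log2 fold change, shHuR against shControl (vertical axis), of 5 gene lists in untreated, HNE-treated and H2O2-treated cells, from 2 libraries a group. The 60S, 40S and other TOP lists lie below 0 in each treatment (−0.04 to −0.21), and the ribosome biogenesis and mitochondrial lists above 0 (0.06 to 0.11).

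Of the regulators, 4 of 19 measured rose and 1 fell (median 0.04). MYC fell, from 80.2 to 108 CPM (median 102) in shControl to 63.3 to 79.2 CPM (median 70.9) in shHuR libraries, with no overlap (−0.48 ± 0.0615 SE, adjusted p = 2.15e-05). MAX, its partner, rose (0.38, adjusted p = 2.22e-05), as did LARP4, which binds poly(A) (0.41, adjusted p = 2.32e-06). LARP1 was not called (0.03 ± 0.0526 SE, adjusted p = 0.713), and MTOR was just past the threshold (0.12 ± 0.0440 SE, adjusted p = 0.0472), a call that held only without the first HNE or second H2O2 shControl library or the first HNE or first untreated shHuR library. A part of these regulators in the ribosomal protein difference was not tested.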

How the data were processed

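HEK293T total RNA was depleted of ribosomal RNA and sequenced as directional single-end 75 bp libraries, per the labels' protocols. The submitters' processing notes name cutadapt 1.8, Bowtie2 2.2, TopHat2 2.1, Cufflinks 2.2, Cuffnorm, Cuffdiff and GRCh37 (hg19). The annotation, the counting rule and the strand setting are not given in the sources used here.

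The authors deposited estimated counts per gene symbol, of which 2.25% (in 701 genes) were not whole, and FPKM values, both with 1 column per library. Counts were rounded, filtered with filterByExpr (minimum count 10), scaled by TMM and tested with edgeR 4.0.16 (R 4.3.3) quasi-likelihood tests, with Benjamini-Hochberg adjustment over all genes tested at 0.05. All 82 genes passed the filter in every comparison. The line effect over all treatments used 12 libraries with treatment as a covariate, line effects within treatments and interactions used 6 group means, and treatment effects used 8 libraries with line as a covariate. CPM are counts over TMM-scaled library sizes, except for the level minimum and the cell type markers, which use unscaled totals. A log2 fold change is shHuR over shControl, or treated over untreated.

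Alternatives were DESeq2 1.42.0, other scalings and filters, a replicate block, limma 3.58.1 on log2(FPKM + 1) or log2(FPKM + 0.1), and leaving out each library. The scripts were tested on simulated data. The deposited FPKM carry a further factor per library, so they served for levels and these alternatives alone.

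Named genes were ELAVL1, RPLP0, RPLP1, RPLP2, RPSA, RPS6, RPL5, RPL11, paralogs with their counterparts, and related genes (1 of which is not reported here), whatever their values. To these came the 8 largest called rises and falls over all treatments, up to 3 of each (or the 2 smallest p) in other comparisons, the 5 highest and lowest FPKM, and the 2 largest called changes of a list. RPL4, RPL10A, RPL13, RPL14, RPL17, RPL29, RPS4X, LARP4 and MAX outside these were named after their values were seen. The genes and lists were chosen with earlier results of these data known. Sequences are from RefSeq (GRCh38.p14).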

Additional observations from a re-analysis of the deposited data

Results flagged for a closer look

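For the summed level and the named ribosomal protein genes called over all treatments, 36 groups of 6 libraries were examined for a single library apart from the rest. Chance flags about 1 in 20 such groups. Named genes that were not called and related mRNAs were not examined. The second HNE-treated shControl library stood apart in 2 of them. RPS3A was 3297 CPM there against 2455 CPM in the next shControl library, a gap of 0.636 of the range where 0.625 is the limit. RPL41 was 1936 CPM there against 1414 CPM in the next, a gap of 0.719 of the range. Of the genes not examined, RPLP1 was 707 CPM there against 569 CPM in the next shControl library, and FAU 399 against 309 CPM. Others were lowest there. RPL29 was 352 CPM against 649 CPM in the next shControl library, and RPL21 62.8 against 141 CPM. Small RNA genes took 1.32% of the counts of this library, more than in any other of the 12 libraries.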

How the results depend on the processing

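The number of ribosomal protein genes by the rule was 82 under each alternative. The line effect over all treatments called 35 of them, and 33 to 48 under DESeq2, other scalings and filters (24.8% to 34.6% of all genes called). It called 18, 17 and 12 with limma on log2(FPKM + 1), log2(FPKM + 0.1) and log2(FPKM + 1) without a filter (33%, 33.1% and 19.5% of all genes). It called 19 with the small RNA share as a covariate (26.5% of all genes) and 29 without both HNE-treated shControl libraries (26.7%), both chosen after seeing the data. Leaving out 1 library gave 23 to 41 (23.7% to 31.9%).

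For line effects within a treatment, the 3 limma settings called 1, 1 and 0 in each of untreated, HNE and H2O2. They called 7.45% to 8.52% of all genes with the filter and 3.23% to 3.47% without it. No filter on low counts called 12 (untreated), 37 (HNE) and 20 (H2O2), against 3, 11 and 4. The shares of all genes called were 9.34%, 9.88% and 8.64%, against 7.98%, 8.27% and 7.19%. The compared groups alone called 6 untreated (10.9% of all genes called) and 0 with HNE (1.33%). For H2O2 DESeq2 called 7 (8.98% of all genes) and library size alone 8 (6.59%). Leaving out 1 library gave 0 to 6 untreated, 0 to 38 with HNE and 0 to 13 with H2O2. Without a filter 1 gene was called for HNE (1.63% of all genes), 2 for H2O2 (0.571%) and 2 for the HNE interaction (0.494%). DESeq2 called 1 for H2O2 (0.019%). Leaving out 1 library gave 0 to 1 for H2O2 (at most 0.00618%) and 0 for HNE (0.0186% to 1.04%). The interaction medians then ran from −0.19 to −0.01 for HNE and from −0.14 to 0.002 for H2O2. The HNE interaction was not without calls in every such fit. Some appeared without the first HNE-treated shControl library, where the median was −0.19 and that group kept 1 library.

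The replicate numbers do not pair the samples: over 15 pairs of groups the correlations of deviations ran from −0.107 to 0.129, and 2 exceeded 0.1. With a replicate block 33 genes were called over all treatments (29.1% of all genes), 3 untreated (6.61%) and 6 with HNE (6.97%).

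Of 1285 values of single genes under alternatives, 1106 kept their direction and side of the threshold, 146 lost and 20 gained the call, and 13 changed sign. RPL39L became 0.0053 with library size alone and 0.11 with the small RNA covariate. LARP1 became −0.045 and FAU 0.058 with that covariate. RPS27 became −0.00061 and FAU 0.013 without both HNE-treated shControl libraries. Leaving out 1 library gave −0.083 to 0.049 for RPL39L, −0.0046 to 0.033 for RPS27 and −0.0020 to 0.073 for LARP1. All these genes were uncalled. The cause of these changes was not tested. The median SE of a log2 fold change over the 82 genes was 0.0928 in untreated cells, with 2 libraries a group, and 0.0513 over all treatments.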
